A study of Danio rerio with 54 samples.

Results

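Retinas collected 5 days post-light (5 dpl), counted from the onset of an intense light lesion, were compared with dark-adapted retinas collected before any lesion (0 h). All 6 libraries labelled 5 dpl and all 6 labelled 0 h entered, 12 of the 54 libraries of the series, and each library was made from the left retina of a single adult albino (alb) zebrafish of 6 to 9 months. The 0 h fish were kept for 5 days in a dark box and received no light treatment. The 5 dpl fish had the same dark adaptation, then 30 min at about 100000 lux, then about 10000 lux up to 3 days, and then 2 days in the normal cycle of 14 h light and 10 h dark. The groups therefore differ in the lesion and also in light history, and the 2 cannot be told apart in this comparison. Retinas at 72 hours post-light (72 hpl), at 10 dpl and from naïve fish, which were neither dark-adapted nor lesioned, were used as neighbours and as a reference in normal light, 6 retinas each. The whole experiment was run in duplicate with 3 fish per group, and experiment 1 is held here to be replicates 1 to 3, and experiment 2 replicates 4 to 6.

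In an adult zebrafish, intense light kills rods and cones, and the lost cells are replaced from within the retina. Müller glia, the support cells that span the retina, re-enter the cell cycle and divide into neurogenic progenitors, which move to the photoreceptor layer and differentiate. Microglia, the resident macrophages, clear the debris while this proceeds. In bulk retina, fewer cells of a type and less RNA per cell cannot be told apart, so the values below are changes in the transcript content of the retina.

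The 0 h libraries held 1111503 to 1906743 counted reads and 5 of the 5 dpl libraries held 2042447 to 2958035. The remaining library, 5 dpl replicate 2, held 228611 reads and stood apart from its group. Its median correlation with the other 5 dpl libraries across genes was 0.707, against 0.912 to 0.929 for each of the others, and among the 12 libraries it was the highest in 2593 genes and the lowest in 4307. It was kept in the main fit, and results that it moves are given with and without it. The other libraries carried several markers of retina at clear levels. The lowest values among them, in reads per 1000000 counted (CPM), were 411 for the Müller glia gene rlbp1a, 407 for the bipolar gene vsx1 and 312 for the ganglion cell gene rbpms2b. Other markers were low. Bipolar prkca had medians of 28.4 CPM at 0 h and 18.5 CPM at 5 dpl. Ganglion cell pou4f2 had medians of 0.511 and 0.900 CPM, with 6 and 15 reads in all. The lens crystallin cryaa had 221 reads at 0 h and none at 5 dpl, and the summed lens list reached 1169 CPM in 0 h replicate 2 against 91.8 CPM in the lowest 0 h retina. Transcripts of digestive gland and liver, 11 genes chosen after they were seen, differed between the experiments: trypsin (try) had 469 to 1314 reads in each of the 24 time-course libraries of experiment 1 and 0 to 4 in each of the 24 of experiment 2. At 5 dpl these 11 genes took 0.477% of the reads of replicate 2 and 0.103% to 0.119% of those of replicates 1 and 3. Their part in any result was not tested.

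Of 13075 genes tested with edgeR, 2293 (17.5%) were higher at 5 dpl than at 0 h and 1868 (14.3%) were lower at an adjusted p below 0.05. Changes of at least 2-fold made up 1063 of the higher and 829 of the lower genes, and changes of at least 8-fold 60 and 42. In 462 genes (3.53%) the 6 retinas at 5 dpl all lay above the 6 at 0 h, and in 503 (3.85%) they all lay below. The median log2 fold change over all genes tested was -0.02. Without 5 dpl replicate 2 the counts were 2497 higher and 2004 lower.

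Retinal gene lists did not share in these changes evenly. Genes of phototransduction were lower almost without exception, genes of progenitors, of the cell cycle, of microglia and of the ribosome were mostly higher.

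**Figure D1:**
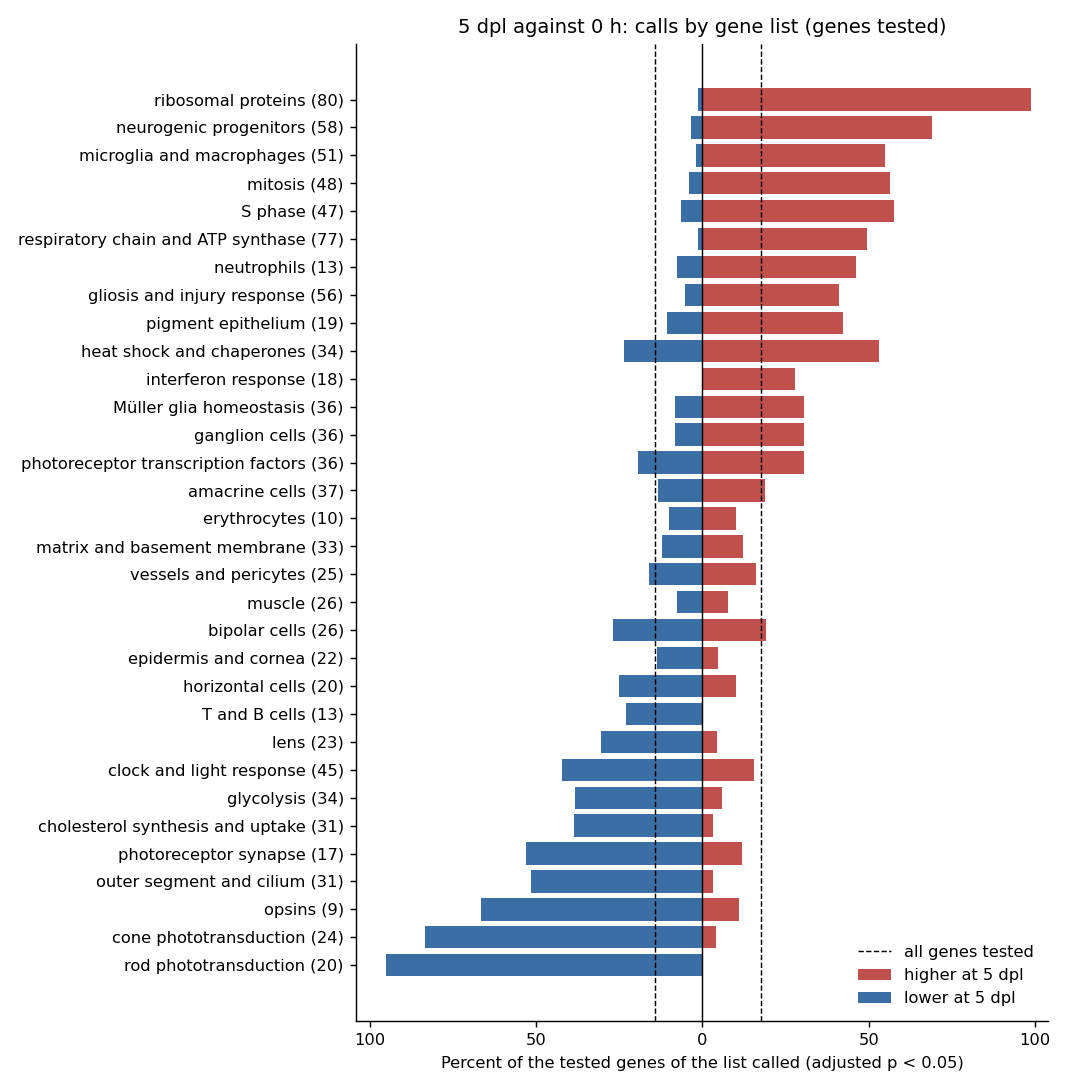
Percent of the tested members of each gene list that were higher (right) or lower (left) at 5 dpl than at 0 h, with the number tested beside each list name. The dashed lines mark the background over all genes, 17.5% higher and 14.3% lower, and the bars of rods, cones and ribosomal proteins extend farthest beyond them.

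Rod phototransduction was reduced as a block. Of 20 rod genes tested, 19 were lower, 0 were higher and the median log2 fold change was -2.15 (within experiments -2.18 and -2.30), and in 16 of them no 5 dpl retina reached the level of any 0 h retina. The exception was rcvrnb, a recoverin. Rhodopsin (rho), the rod visual pigment, was at 20980, 26350 and 37800 CPM (lowest, median and highest) in the 6 retinas at 0 h and at 1526, 5392 and 7314 CPM at 5 dpl. The groups did not overlap, and the log2 fold change was -2.50 ± 0.19 (SE, adjusted p = 4.26e-16). The lowest of the 5 dpl values belonged to the shallow library, and the change without it was -2.32.

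The rod transducin chain changed by a similar amount. The α subunit gnat1 went from 2941, 3398 and 3870 CPM to 345, 443 and 660 CPM (log2 fold change -2.82 ± 0.17), and the γ subunit gngt1 fell by 2.48 on the log2 scale. Phosducins, which bind the transducin βγ dimer, gave the largest changes of the list. Gene pdcb went from 3749, 4064 and 5179 CPM to 221, 306 and 513 CPM, with a log2 fold change of -3.71 ± 0.16 (adjusted p = 1.02e-24), and pdca gave -3.43 ± 0.19. Their 5 dpl retinas all lay far below the lowest 0 h retina. Gene pdcb was also named by size of change, for which lack of overlap was a condition. Rod arrestin sagb, which shuts off activated rhodopsin, changed less, from a median of 426 to 204 CPM (-1.22 ± 0.18), and rom1b, a disc rim protein, changed from 1744 to 319 CPM (-2.43 ± 0.13).

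Cone phototransduction fell in parallel. Of 24 cone genes tested, 20 were lower and 1 was higher, with a median of -2.10. The gene that rose was gnb3a, a transducin β subunit (log2 fold change 0.67), which is also on the bipolar cell list and counted there. Cone transducin α (gnat2) was at 5806, 6404 and 6937 CPM at 0 h and at 527, 854 and 1425 CPM at 5 dpl. Cone phosphodiesterase (pde6c) was at 5988, 6780 and 7789 CPM and at 757, 948 and 1346 CPM. Both sets of retinas were well apart, with log2 fold changes of -2.75 ± 0.18 and -2.80 ± 0.17. Cone opsin kinase grk1b gave -3.27 ± 0.25, guanylate cyclase gc3 gave -2.56 ± 0.17, the cone exchanger slc24a2 gave -2.65 ± 0.18 and the cyclase activator guca1d gave -3.60 ± 0.45.

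The 3 cone genes that did not pass were arr3a, gngt2a and guca1a. Cone arrestin arr3a was at 2597, 2862 and 5009 CPM at 0 h and at 425, 2252 and 4872 CPM at 5 dpl, so the groups overlapped over most of their range (log2 fold change -0.50 ± 0.26, adjusted p = 0.143). It was lower in experiment 1 alone (-1.12, adjusted p = 0.00421), whereas its change in experiment 2 was 0.04. The cone transducin γ gene gngt2a was at medians of 1025 and 897 CPM with wide overlap, while its paralog gngt2b was lower (-1.45 ± 0.26).

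**Figure D2:**
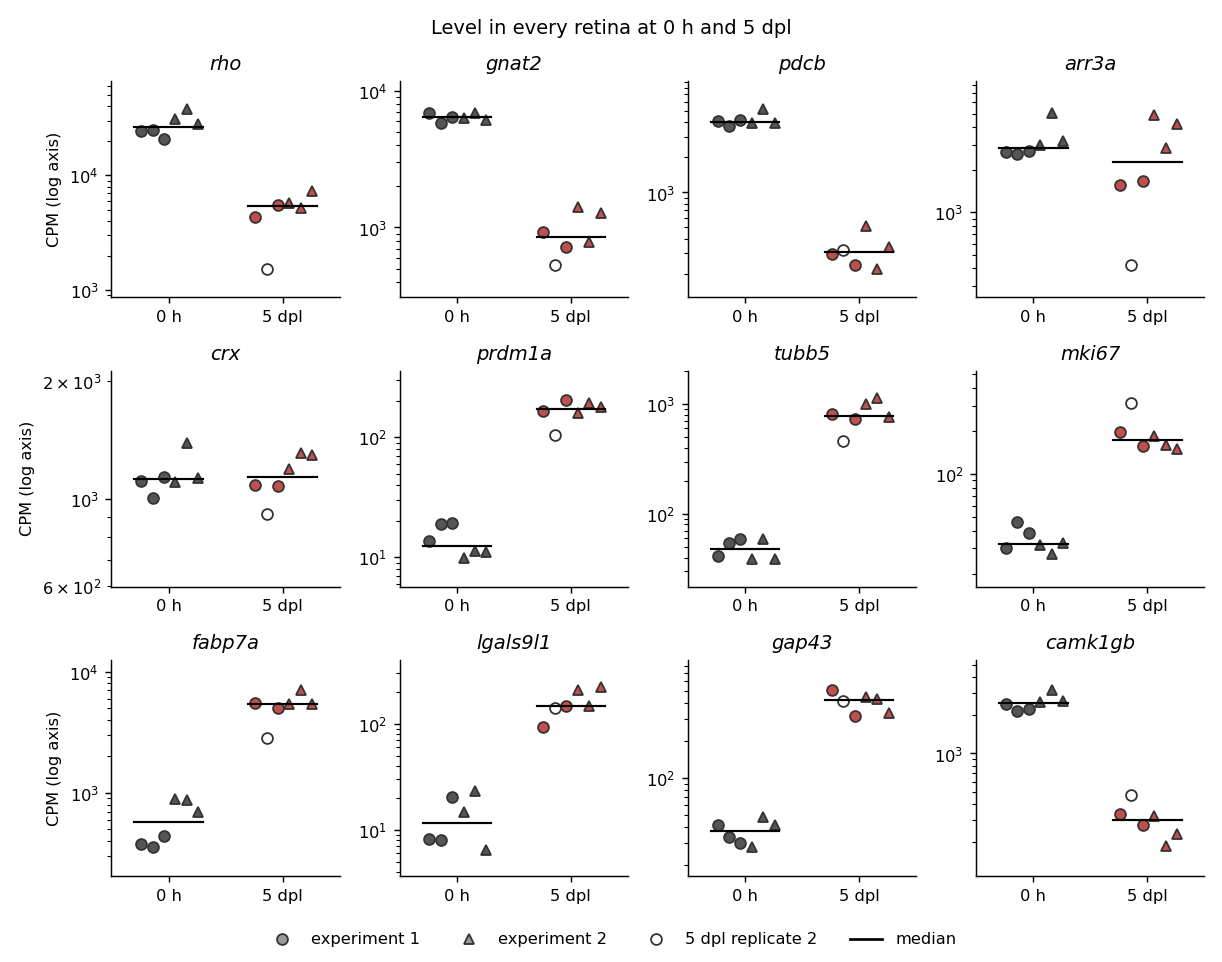
CPM (log axis) of 12 genes in each of the 12 retinas, 0 h at the left and 5 dpl at the right of each panel, with circles for experiment 1, triangles for experiment 2, an open circle for the shallow 5 dpl replicate 2 and a line at the median. The groups are apart in rho, gnat2, pdcb and camk1gb (lower) and in tubb5, mki67, fabp7a, gap43, lgals9l1 and prdm1a (higher), and they overlap in arr3a and crx. Lack of overlap was a condition for pdcb, tubb5, gap43, lgals9l1 and prdm1a, which were named by size of change.

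The 9 visual opsins did not fall alike. Of these, 6 were lower and 1 was higher, with a median of -1.02, and the medians differed between the experiments (-2.63 in experiment 1 and -0.80 in experiment 2). The ultraviolet opsin opn1sw1 was at 3316, 4632 and 9174 CPM at 0 h and at 153, 613 and 944 CPM at 5 dpl, and the blue opsin opn1sw2 was at 1831, 2313 and 3873 CPM and at 65.4, 435 and 857 CPM. Neither overlapped between groups, with log2 fold changes of -3.09 ± 0.27 and -2.39 ± 0.21. Of the red opsins, which lie in tandem, opn1lw1 changed from a median of 2322 to 1516 CPM (-0.65 ± 0.23, adjusted p = 0.0229), a call that was lost without the shallow library (-0.53, adjusted p = 0.0633). The call was also lost with no experiment term (-0.62), without 0 h replicate 5 (-0.56), without 5 dpl replicate 3 (-0.57) and in experiment 2 alone (-0.42). The other red opsin, opn1lw2, rose from 108, 178 and 375 CPM to 167, 714 and 1547 CPM (1.92 ± 0.39, adjusted p = 7.58e-05), with some overlap between the groups. Of the green opsins, opn1mw2 fell from a median of 1238 to 72.6 CPM (-3.56 ± 0.43), opn1mw3 fell from 839 to 388 CPM (-1.02 ± 0.31), opn1mw4 was at 466 and 473 CPM (0.12 ± 0.24, adjusted p = 0.750) and opn1mw1 was at 10.3 and 16.9 CPM (-1.01 ± 0.64, adjusted p = 0.239).

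Shares within a family do not depend on library size, so the red and green opsins were also compared as percent of the reads of their family. Gene opn1lw2 took 4.27%, 7.33% and 9.61% (lowest, median and highest) of red opsin reads at 0 h and 17.8%, 34.3% and 41.4% at 5 dpl. Gene opn1mw2 took 31.5%, 45.8% and 74.1% of green opsin reads and then 2.19%, 7.12% and 24.0%, and opn1mw4 took 6.32%, 18.3% and 25.5% and then 35.8%, 44.7% and 72.4%. In these 3 the groups did not overlap, and the differences in the mean share were 24.0, -40.1 and 31.8 percentage points. Each reached the smallest p that the exact two-sided permutation test of 6 against 6 retinas allows (0.0022, adjusted p = 0.00361 over 5 shares). The lowest 5 dpl shares of opn1lw2 and opn1mw2 came from the shallow library, with 46 of 258 red and 3 of 137 green opsin reads. Without that library the differences were 26.7 and -38.8 points. The permutations took no account of the experiment, so the test treats retinas of both experiments as exchangeable. The shares of opn1mw3 (37.1% and 37.6% at the median, adjusted exact permutation p = 0.344) and opn1mw1 (0.421% and 1.71%, adjusted exact permutation p = 0.610) overlapped widely. Tandem opsin paralogs have closely related sequences, and how reads that match more than one of them were counted is not given in the sources used here, so the division between paralogs is uncertain.

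**Figure D3:**
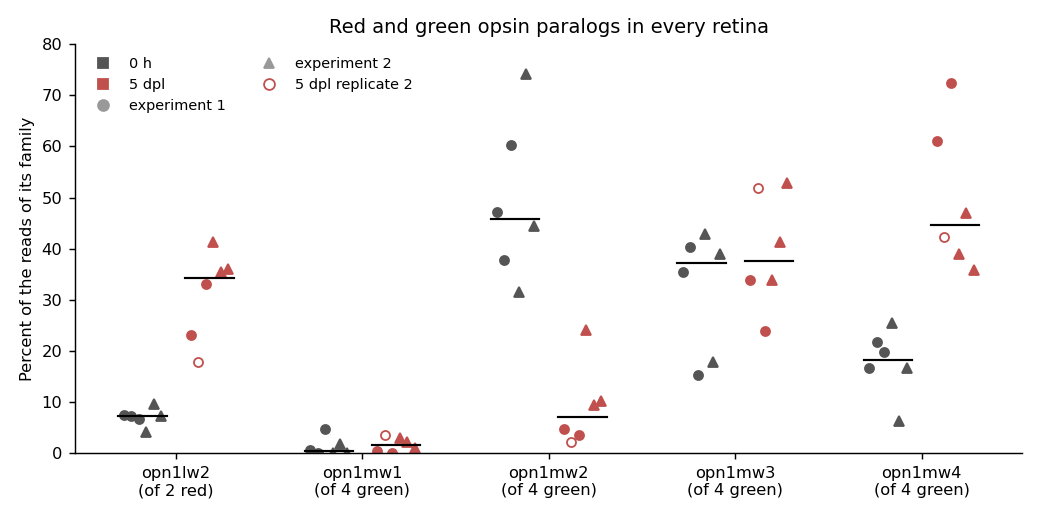
Percent of red opsin reads from opn1lw2 and percent of green opsin reads from opn1mw1 to opn1mw4 in each retina, 0 h against 5 dpl, with a line at the median. The share of opn1lw2 rose from a median of 7.33% to 34.3% and that of opn1mw4 from 18.3% to 44.7%, while opn1mw2 fell from 45.8% to 7.12%.

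Structural genes of the photoreceptor changed by class. Of 31 genes of the outer segment and cilium, 16 were lower, 1 (bbs2, of the ciliary BBSome) was higher, and the median was -0.43. The disc rim genes prph2a (926 to 169 CPM at the median, -2.38 ± 0.16) and prph2b (559 to 91.1 CPM, -2.44 ± 0.17) and the retinol dehydrogenase rdh8b (91.1 to 12.4 CPM, -2.92 ± 0.26) fell as far as the transduction genes. Among genes of the cilium, the BBSome gene bbs1 (35.2 to 17.0 CPM, -1.11 ± 0.25) and the small GTPase arl3l1 (-0.83 ± 0.11) were lower, whereas cep290 of the transition zone (805 and 674 CPM, -0.23 ± 0.14) and the kinesin kif3a (177 and 163 CPM, -0.09 ± 0.13) did not pass the test. Gene prom1b, of the forming discs, did not pass either (191 and 228 CPM, 0.09 ± 0.12). Of 17 genes of the photoreceptor synapse, 9 were lower and 2 (syt5b and ctbp2a) were higher. Complexins at the ribbon fell, cplx4a from 1427 to 457 CPM (-1.71 ± 0.13) and cplx4c from 235 to 29.3 CPM (-3.12 ± 0.18), as did the calcium sensor cabp4 (223 to 30.2 CPM, -2.88 ± 0.17). The presynaptic calcium channel gene cacna1fb was at 183 and 189 CPM (0.10 ± 0.10, adjusted p = 0.496).

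Transcription factors of the photoreceptor lineage moved both ways. Of 36 tested, 11 were higher and 7 lower, with a median of 0.16 (0.04 without 5 dpl replicate 2). Over all genes 17.5% were higher and 14.3% lower. The homeobox gene crx, needed for photoreceptor differentiation, was at 1004, 1122 and 1386 CPM at 0 h and at 916, 1140 and 1312 CPM at 5 dpl (-0.00 ± 0.10, adjusted p = 0.998), and otx5 was at 350 and 425 CPM (0.23 ± 0.13). The ranges of crx coincided almost fully, in the same retinas in which rho and gnat2 were apart. Gene prdm1a, a regulator of photoreceptor fate, rose from 9.92, 12.5 and 19.4 CPM to 105, 174 and 206 CPM (3.61 ± 0.20), with no overlap. It was also named by size of change, for which lack of overlap was a condition. The nuclear receptor rxrgb rose from 6.65 to 53.5 CPM (2.99 ± 0.29), nr2e3, which represses cone genes in rods, rose from 18.3 to 42.8 CPM (1.36 ± 0.20) and neurod1 rose from 925 to 1733 CPM (0.98 ± 0.13). The nuclear receptor nr2f6b fell from 212 to 41.8 CPM (-2.42 ± 0.22).

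Progenitor genes were raised at 5 dpl. Of 58 neurogenic genes tested, 40 were higher and 2 lower, with a median of 0.97. Tubulin tubb5 rose from 38.5, 47.7 and 59.1 CPM to 458, 788 and 1136 CPM (4.08 ± 0.24, adjusted p = 2.81e-20). The transcription factor sox11b, expressed in newly born neurons, rose from 22.3, 50.4 and 68.8 CPM to 371, 408 and 454 CPM (3.08 ± 0.17). Both were apart by several fold, and sox11b was even among the 5 dpl retinas. Lack of overlap was a condition for tubb5, which was also named by size of change. Stathmin stmn1a (9.41 to 129 CPM, 3.63 ± 0.24), the chromatin protein hmga1a (244 to 1030 CPM, 2.19 ± 0.14) and insm1a (7.88 to 62.2 CPM, 2.94 ± 0.30) rose as well. The bHLH factor ascl1a, required for Müller glia to reprogramme, rose from 2.61 to 22.1 CPM (2.69 ± 0.41), and the receptor notch1b rose from 29.4 to 51.2 CPM (0.76 ± 0.18). The 2 lower genes were rx1, a retinal homeobox gene also used by photoreceptors, which fell from 580 to 190 CPM (-1.73 ± 0.14), and the neuronal RNA-binding gene elavl3 (25.4 to 15.3 CPM, -0.69 ± 0.23, adjusted p = 0.0190). The elavl3 call was lost with only the 12 libraries compared (adjusted p = 0.106), with voom weights, in experiment 1 alone (-0.27), and without 0 h replicate 3 or 6 or 5 dpl replicate 4 or 6 (-0.54 to -0.59).

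Cell cycle genes rose with them. Of 47 genes of S phase, 27 were higher and 3 (rfc5, ccne1 and gins1) lower, and of 48 genes of mitosis, 27 were higher and 2 (birc5b and ect2) lower, with medians of 0.93 and 1.07. The proliferation marker mki67 was at 27.4, 32.1 and 45.9 CPM at 0 h and at 150, 172 and 312 CPM at 5 dpl (2.45 ± 0.15, adjusted p = 9.88e-20), so that the lowest 5 dpl retina lay above the highest at 0 h. The replicative helicase genes mcm2 (2.52 to 49.5 CPM, 3.60 ± 0.35) and mcm7 (19.9 to 148 CPM, 2.71 ± 0.20) and thymidylate synthase tyms (1 to 25.5 CPM, 3.92 ± 0.35) gave the larger changes of S phase. The polymerase clamp pcna rose from a median of 74.3 to 189 CPM (1.31 ± 0.18) but was at 25.4 CPM in the shallow library. Topoisomerase top2a (33.1 to 179 CPM, 2.45 ± 0.16), nusap1 (11.3 to 67.4 CPM, 2.56 ± 0.22) and tpx2 (50.3 to 122 CPM, 1.27 ± 0.13), which act on chromosomes and the spindle, rose. Not every spindle gene did, and hmmr was at 82.4 and 78.7 CPM (-0.03 ± 0.17).

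Against 0 h, genes of Müller glia and of the injury response were more often higher than lower. Against naïve retinas, given below, this did not hold for Müller glia. Of 36 genes listed for Müller glia homeostasis, fabp7a among them, 11 were higher and 3 (atp1a1b, hepacama and mlc1, of which 1 without 0 h replicate 5) lower, with a median of 0.23. Of 56 genes of gliosis and injury response, 23 were higher and 3 (mdka, inhbaa and fosl2) lower, with a median of 0.52. The fatty acid binding gene fabp7a, a marker of radial glia and progenitors, rose from 357, 571 and 891 CPM to 2852, 5393 and 7118 CPM (3.13 ± 0.21), with no overlap. The intermediate filament genes gfap (19.8 to 74.5 CPM, 2.01 ± 0.17) and vim (95.2 to 303 CPM, 1.63 ± 0.13) and the lipid carrier apoeb (518 to 2028 CPM, 2.00 ± 0.16) rose too. The stress-induced factor atf3 rose from 18, 29.4 and 41.1 CPM to 182, 208 and 238 CPM (2.87 ± 0.19), and the autophagy gene vmp1 rose from 101 to 291 CPM (1.58 ± 0.14).

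Other glial genes did not move with these. Glutamine synthetase glula was at 786 and 848 CPM (-0.21 ± 0.14, adjusted p = 0.249), stat3 at 69.7 and 84.5 CPM (0.18 ± 0.14) and midkine mdkb at 317 and 342 CPM (0.10 ± 0.11), while mdka fell from 2377 to 1131 CPM (-1.18 ± 0.13). The retinoid binding gene rlbp1a rose from 480 to 1006 CPM (0.93 ± 0.19). The glutamate transporter slc1a2b shows how far 1 library can carry a value: it was at 889 to 1170 CPM in 5 of the 5 dpl retinas and at 4675 CPM in the shallow one, and its log2 fold change was 0.99 with that library and 0.35 without it.

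Of 51 genes of microglia and macrophages, 28 were higher, 1 (havcr1) lower and 22 not called, with a median of 1.2 (0.65 in experiment 1 and 1.45 in experiment 2). The summed level of the list was 1017 to 1476 CPM at 0 h and 1485 to 2797 CPM at 5 dpl. A galectin, lgals9l1, rose from 6.51, 11.5 and 23.0 CPM to 92.7, 146 and 222 CPM (3.49 ± 0.34) and the myeloid transcription factor spi1b rose from 4.65, 14.0 and 21.6 CPM to 57.7, 85.6 and 128 CPM (2.63 ± 0.25), both with no overlap. Gene lgals9l1 was also named by size of change, for which lack of overlap was a condition. Cathepsin ctsc rose from 10.0 to 67.1 CPM (2.54 ± 0.25). The macrophage perforin mpeg1.1 was low throughout, at 2.79, 7.49 and 15.4 CPM and at 3.63, 16.2 and 32.8 CPM, with overlapping groups (1.2 ± 0.36, adjusted p = 0.00863), and its change was 0.12 in experiment 1 (adjusted p = 0.891) and 2.88 in experiment 2. With voom weights the mpeg1.1 call was lost (adjusted p = 0.0529). Abundant members that did not pass were the actin-binding gene aif1l (178 and 185 CPM, -0.07 ± 0.13), the lysosomal hexosaminidase hexb (93.2 and 119 CPM, 0.15 ± 0.18) and the invariant chain cd74a (85.8 and 121 CPM, 0.53 ± 0.23, adjusted p = 0.0711). The receptor csf1ra, a defining marker, was at medians of 5.00 and 2.64 CPM with 47 and 33 reads in all. The granulin gene grn2 had 2 reads in the 6 retinas at 0 h together and 465 at 5 dpl, and the ratio of the pooled CPM was 181 (95% exact counting interval 49.7 to 1497, counting error only). Of other blood cell lists, 6 of 13 neutrophil genes were higher and 1 lower, 0 of 13 genes of T and B cells were higher and 3 (pax5, ccr7 and rag2) lower, and 5 of 18 interferon response genes (b2m, isg15, psmb8a, irf1b and irf9) were higher. Among these b2m, the light chain of class I histocompatibility proteins, rose from 11.9 to 55.8 CPM (2.27 ± 0.33). Over all genes 17.5% were higher and 14.3% lower. In these other lists, which are short, only the 6 higher neutrophil genes stood well apart from those shares. The defining neutrophil markers were low and did not move alike. Gene mpx was at medians of 4.65 and 3.44 CPM with 53 and 54 reads in all. Gene lyz was at 3.48 and 12.3 CPM with 30 and 209 reads. The 1 lower neutrophil gene was csf3r (-0.81 ± 0.27). The neutrophil list also holds cpa5, which was counted with the digestive genes.

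The growth cone gene gap43 rose from 27.9, 37.4 and 48.5 CPM to 315, 423 and 511 CPM (3.46 ± 0.21, adjusted p = 1.22e-19). A β-thymosin, tmsb, which binds actin monomers, rose from 0.620, 4.15 and 4.98 CPM to 47.2, 121 and 169 CPM (5.12 ± 0.31), the intermediate filament gene prph, found in growing axons, rose from 1.43 to 23.9 CPM (3.51 ± 0.50), and stmn2b, a stathmin of growing axons, rose from 67.1 to 210 CPM (1.53 ± 0.19). For gap43 and tmsb the 2 groups were apart in every retina. For genes named by size of change, gap43 and tmsb among them, this was a condition of the choice. The related gene stmn2a was at 227 to 344 CPM in 5 of the 5 dpl retinas and at 1628 CPM in the shallow one, with a log2 fold change of 1.66 and of 1.06 without it. No fixed list was made for genes of axon growth, but gap43 is a member of the ganglion cell list. It is therefore part of the ganglion cell count below. Over the inner neurons, genes were called at about the rate of all genes (31.8%) or somewhat more often. Of 36 ganglion cell genes, 11 were higher and 3 lower (median 0.17). The counts were 7 and 5 of 37 for amacrine cells (median 0.03), 5 and 7 of 26 for bipolar cells (median -0.24, with 3 higher without 0 h replicate 2) and 2 and 5 of 20 for horizontal cells (median -0.05). Ganglion cell rbpms2b was at 371 and 378 CPM (-0.16 ± 0.15), and the neuronal G protein gnao1a was at 950 and 1330 CPM (0.23 ± 0.14, adjusted p = 0.212) but 0.40 higher without the shallow library (adjusted p = 0.0001). On the amacrine list, elavl4 (680 to 1219 CPM, 0.74 ± 0.11) and ebf3a (63.3 to 119 CPM, 1.05 ± 0.15) rose with no overlap. On the bipolar list, gng13b rose with overlap (198 to 466 CPM, 0.70 ± 0.20). Those that fell included the calcium-binding gene cabp2a of bipolar cells (368 to 169 CPM, -1.23 ± 0.18), choline acetyltransferase chata of starburst amacrine cells (103 to 47.6 CPM, -1.12 ± 0.22) and the horizontal cell connexin cx52.6 (32.1 to 13.9 CPM, -1.07 ± 0.28).

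Of 19 genes of the pigment epithelium tested, 8 were higher and 2 lower (without 5 dpl replicate 6, 5 were higher). Their summed level was 1889 to 3854 CPM at 0 h and 1651 to 7526 CPM at 5 dpl. The melanosome genes tyrp1b (79.0 to 453 CPM, 2.7 ± 0.24) and pmela (87.6 to 227 CPM, 1.31 ± 0.18) rose with no overlap, whereas the visual cycle isomerase rpe65a ranged from 50.9 to 1214 CPM at 5 dpl and from 219 to 565 CPM at 0 h (0.39 ± 0.32, adjusted p = 0.382). Of 23 lens genes 7 were lower, but without 0 h replicate 2 only 1 was. Of 22 genes of epidermis and cornea 1 was higher, icn, an S100 calcium-binding gene, at 47.3 and 467 CPM (2.97 ± 0.33), and 3 (evpla, krt5 and krt15) were lower. Among 26 muscle genes 2 were higher and 2 lower, and among 25 genes of vessels and pericytes 4 were higher and 4 lower. Over all genes 17.5% were higher and 14.3% lower. The counts for epidermis, muscle and vessels were near or below these shares.

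More genes of the circadian clock and of the response to light were lower than higher, at a time when the 0 h fish had been in the dark for 5 days and the 5 dpl fish back in a light cycle for 2. Of 45 tested, 19 were lower, 7 higher and 19 not called, with a median of -0.50, and the summed level was 7041 to 10570 CPM at 0 h and 3908 to 4812 CPM at 5 dpl, with no overlap. The kinase gene camk1gb, known for rhythmic expression in the pineal gland of zebrafish, went from 2184, 2498 and 3159 CPM to 184, 297 and 472 CPM (-3.13 ± 0.16, adjusted p = 2.76e-22). It held a large part of the summed level at 0 h, so the fall of the sum leans on this gene. Its log2 difference at 5 dpl was 1.06 from 72 hpl and -2.35 from 10 dpl. The clock repressors per1b (507 to 106 CPM, -2.29 ± 0.20) and cry2 (236 to 67.3 CPM, -1.75 ± 0.18) and the melatonin enzyme aanat1 (403 to 107 CPM, -1.95 ± 0.19) fell as well. In the opposite direction, nfil3, a repressor in the clock's output loop, rose from 5.58 to 48.9 CPM (2.56 ± 0.34), and arntl2, a partner of CLOCK, rose from 8.44 to 24.3 CPM (1.55 ± 0.38).

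The machinery of translation changed as a unit. Of 80 ribosomal protein genes, 79 were higher and 1 (rps8b, log2 fold change -1.64) was lower, with a median of 1.39 (1.11 in experiment 1 and 1.52 in experiment 2). Their summed level was 30850 to 48230 CPM at 0 h and 81540 to 124200 CPM in 5 of the 5 dpl retinas, and it was 32980 CPM in the shallow library, within the range of 0 h. The acidic stalk protein gene rplp1 was at 993, 1132 and 1573 CPM and at 2249, 3659 and 4751 CPM (1.59 ± 0.10), and rpl35a of the large subunit was at 535, 598 and 732 CPM and at 1539, 1793 and 1984 CPM (1.54 ± 0.10). In both, all 5 dpl retinas, the shallow one included, lay above all 0 h retinas, which held for 12 of the 80 genes.

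Of 34 chaperones, 18 were higher and 8 lower (5 lower without 5 dpl replicate 5), with a median of 0.53. The cytosolic chaperone hsp90ab1 went from 2754, 2956 and 3225 CPM to 6333, 6930 and 15380 CPM (1.49 ± 0.15, and 1.22 without the shallow library, which held the highest value). Mitochondrial hspd1 (102 to 329 CPM, 1.59 ± 0.13) and the chaperonin subunit cct2 (167 to 440 CPM, 1.22 ± 0.12) also rose. The inducible genes hsp70.3 (2.2 and 3.64 CPM, 0.69 ± 0.67), hsp70l (11.6 and 4.16 CPM, -1.46 ± 0.63) and serpinh1b (15.2 and 15.6 CPM, 0.17 ± 0.43) did not pass over both experiments. Within single experiments hsp70.3 passed in experiment 2 (4.31, adjusted p = 0.00349), hsp70l in experiment 1 (-2.75, adjusted p = 0.000917) and serpinh1b in experiment 2 (1.11, adjusted p = 0.0268). Gene hsp70l also passed without 0 h replicate 5 (-1.65) and without 5 dpl replicate 6 (-2.02).

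Energy metabolism did not move in one direction. Of 77 genes of the respiratory chain and ATP synthase, 38 were higher and 1 (ndufs7) lower, and without the shallow library 58 were higher, with medians of 0.40 and 0.46. The median was 0.10 in experiment 1, which holds the shallow library, and 0.64 in experiment 2. Their summed level was 13520 to 23660 CPM at 0 h, 17810 to 32720 CPM in 5 of the 5 dpl retinas and 5925 CPM in the shallow one. The cytochrome oxidase subunit cox5aa rose from 116 to 287 CPM (0.94 ± 0.17) but did not pass in experiment 1 alone (0.57, adjusted p = 0.144). Gene atp5b of ATP synthase was not called in the main fit but was called without the shallow library (0.46, adjusted p = 0.00034). Of 34 glycolysis genes 13 were lower and 2 higher: enolase eno1b fell from 438 to 133 CPM (-1.88 ± 0.19), hexokinase hk1 from 570 to 304 CPM (-0.87 ± 0.10) and the glucose transporter slc2a1a from 128 to 22.9 CPM (-2.24 ± 0.23), while gapdhs was at 847 and 1006 CPM (-0.23 ± 0.23). Of 31 genes of cholesterol synthesis and uptake 12 were lower, among them the rate-limiting reductase hmgcra (79.3 to 23.9 CPM, -1.60 ± 0.21), and 1, the cholesterol exporter abca1a, was higher (148 to 251 CPM, 0.74 ± 0.11). The master regulator srebf2 was at 207 and 195 CPM (-0.08 ± 0.14).

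Among genes picked by size of change alone, with no overlap between retinas, several belonged to none of the lists above. The neuronal calcium sensor ncaldb fell from 958, 1189 and 1829 CPM to 10.9, 75.6 and 137 CPM (-4.00 ± 0.21), the mitochondrial carrier slc25a25a from 452, 495 and 1144 CPM to 21.8, 51.7 and 73.8 CPM (-3.49 ± 0.18), and keratocan (kera), a corneal proteoglycan, from 236, 328 and 569 CPM to between 3.63 and 38.5 CPM (-3.67 ± 0.27). An insulin gene, insb, was at 8.68, 31.1 and 48.6 CPM and then at 0, 0.617 and 2.47 CPM (-4.63 ± 0.67), and es1, known from cone mitochondria in zebrafish, went from a median of 2828 to 226 CPM (-3.51 ± 0.26). That the highest 5 dpl retina lay below the lowest at 0 h in each of these was a condition of the choice. Of 33 genes of the matrix, 4 were higher and 4 lower (2 lower without 0 h replicate 4, 5 dpl replicate 4 or 5 dpl replicate 6). These shares lay below those over all genes (17.5% higher and 14.3% lower). Tenascin tnc (21.6 to 66.8 CPM, 1.69 ± 0.20) and sparc (94.1 to 189 CPM, 1.01 ± 0.15) were among the 4 that rose.

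The position of 5 dpl in the time-course was read from its neighbours. Against 72 hpl, when the strong light had just ended, 855 genes (6.54%) were higher at 5 dpl and 910 (6.96%) lower, and against 10 dpl 891 (6.81%) were higher and 752 (5.75%) lower. These comparisons share the 5 dpl retinas with the one above. All 9 opsins were higher at 5 dpl than at 72 hpl (median 3.39), as were 18 of 20 rod genes (median 1.25) and 19 of 24 cone genes (median 1.82). Against 10 dpl 8 opsins, 19 rod genes and 19 cone genes were lower (medians -2.47, -2.10 and -1.76). Photoreceptor transcripts at 5 dpl thus lay between those of the 2 neighbours. For pdcb, the log2 difference was 3.08 from 72 hpl and -2.13 from 10 dpl, and for gnat2 it was 3.09 and -2.21.

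Progenitor and cell cycle genes had the reverse order. Against 72 hpl, 37 of 58 neurogenic genes were lower and 4 higher (median -0.73), 19 of 47 S phase genes were lower (median -0.58) and 37 of 48 mitosis genes were lower (median -1.24), with 0 higher in the last 2 lists. Against 10 dpl, 25, 19 and 25 of them were higher (medians 0.66, 0.57 and 0.91), and 1, 1 and 0 lower. The log2 difference of mki67 was -1.37 against 72 hpl and 1.29 against 10 dpl, and that of sox11b was -0.93 and 1.22. For prdm1a it was -0.59 and 2.04. Of the 56 gliosis and injury genes 17 were lower than at 72 hpl and 0 higher (median -0.34). Genes named for their large difference to 72 hpl included stress genes, and the log2 difference was -4.82 for hsp70.3, -4.18 for hsp70l, -3.93 for serpinh1b and -2.86 for the matrix protease mmp9. Of the 34 chaperones 19 were lower than at 72 hpl and 0 higher. Gene gap43 did not pass against 72 hpl (0.18, adjusted p = 0.594) and was 1.12 higher than at 10 dpl, and lgals9l1 passed in neither (0.00 and 0.59).

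Ribosomal protein genes at 5 dpl lay closer to 72 hpl than to 0 h. Of the 80, 11 were lower and 0 higher than at 72 hpl (median -0.31), while 66 were higher and 1 lower than at 10 dpl (median 0.58). Of 77 respiratory chain genes 28 were higher than at 72 hpl and 0 lower, and 6 were lower than at 10 dpl, a share near that of all genes.

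**Figure D4:**
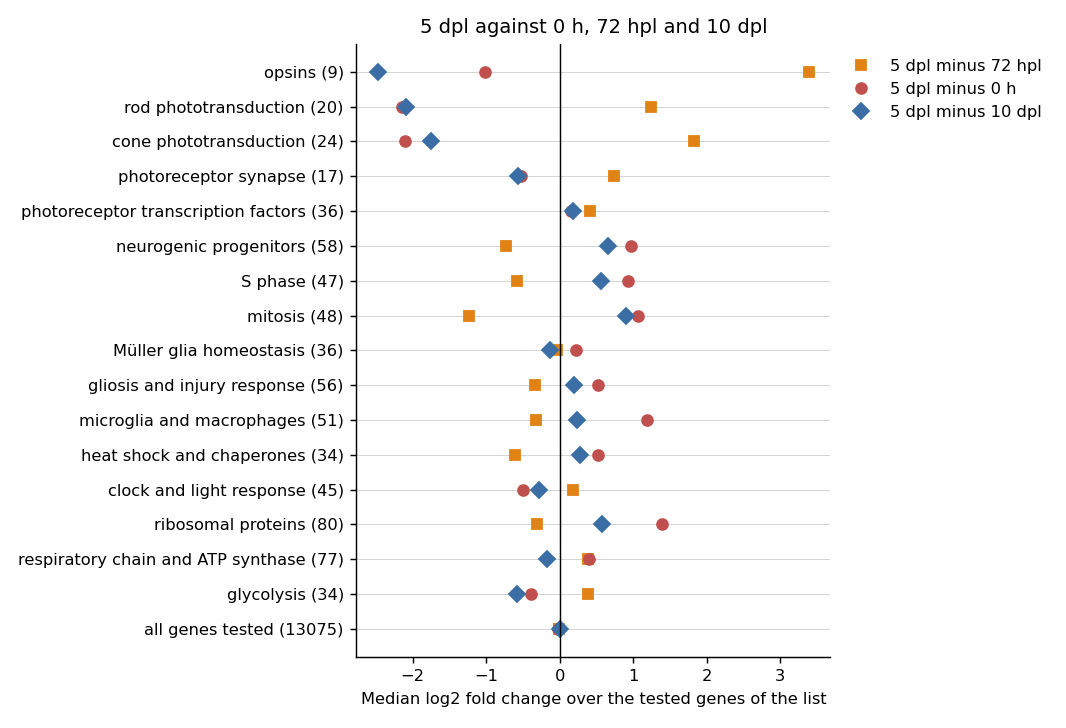
Median log2 difference of each gene list at 5 dpl minus 72 hpl, minus 0 h and minus 10 dpl, in log2 units. Opsins, rods and cones lie above 72 hpl (3.39, 1.25 and 1.82) and below 0 h and 10 dpl, and neurogenic, S phase and mitosis genes lie below 72 hpl (-0.73, -0.58 and -1.24) and above 0 h and 10 dpl.

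Naïve retinas, kept in the normal light cycle, offered a reference without the dark adaptation of 0 h, on pseudo-counts and with limma. Of 11738 genes tested, 2312 (19.7%) were higher and 1992 (17%) lower at 5 dpl than in naïve retinas. The dark-adapted 0 h retinas also differed from naïve ones, with 2715 genes (23.1%) higher and 2541 (21.6%) lower. The naïve libraries are assigned to neither experiment in the sources used here, so a difference from them holds dark adaptation or lesion together with any difference between runs, and these cannot be told apart.

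Some lists lay on the same side of either reference. Against naïve retinas the medians at 5 dpl were -2.69 for rod genes, -2.12 for cone genes, 0.76 for neurogenic genes and 0.93 for S phase genes, beside 0.07 over all genes. The same medians at 0 h were -0.14, -0.12, -0.35 and 0.18. For cone transducin gnat2 the difference from naïve was -2.84 at 5 dpl (limma, adjusted p = 1.4e-09) and -0.01 at 0 h (adjusted p = 0.97), and for tubb5 it was 3.15 at 5 dpl. In these lists 5 dpl differed from both references in one direction.

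In other lists the 0 h retinas lay away from naïve ones, so that the size or direction of the 5 dpl difference varied with the reference. Ribosomal proteins had a median of 0.31 above naïve at 5 dpl, with 13 of 80 higher and 0 lower. That share of higher genes was not above the 19.7% over all genes. At 0 h their median was -0.98, with 0 higher and 70 lower, beside 21.6% lower over all genes. Clock and light genes lay at -0.33 at 5 dpl and at 0.48 at 0 h, and per1b lay at -0.85 and at 1.54. Chaperones were at 0.03 and -0.61. Genes of Müller glia homeostasis were at -0.43 and -0.29, with 5 of 34 higher and 10 lower than naïve at 5 dpl. Genes of gliosis and injury response were at 0.076 and -0.505, with 11 of 49 higher and 6 lower at 5 dpl. Over all genes 19.7% were higher and 17% lower. Respiratory chain genes were below naïve at both, with medians of -0.90 (38 of 77 lower) and -1.15 (58 lower), so that their rise from 0 h to 5 dpl left them below naïve. Mitosis genes were above naïve at both (2.13 and 1.24), and opsins were below at both (-3.39 and -1.33).

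**Figure D5:**
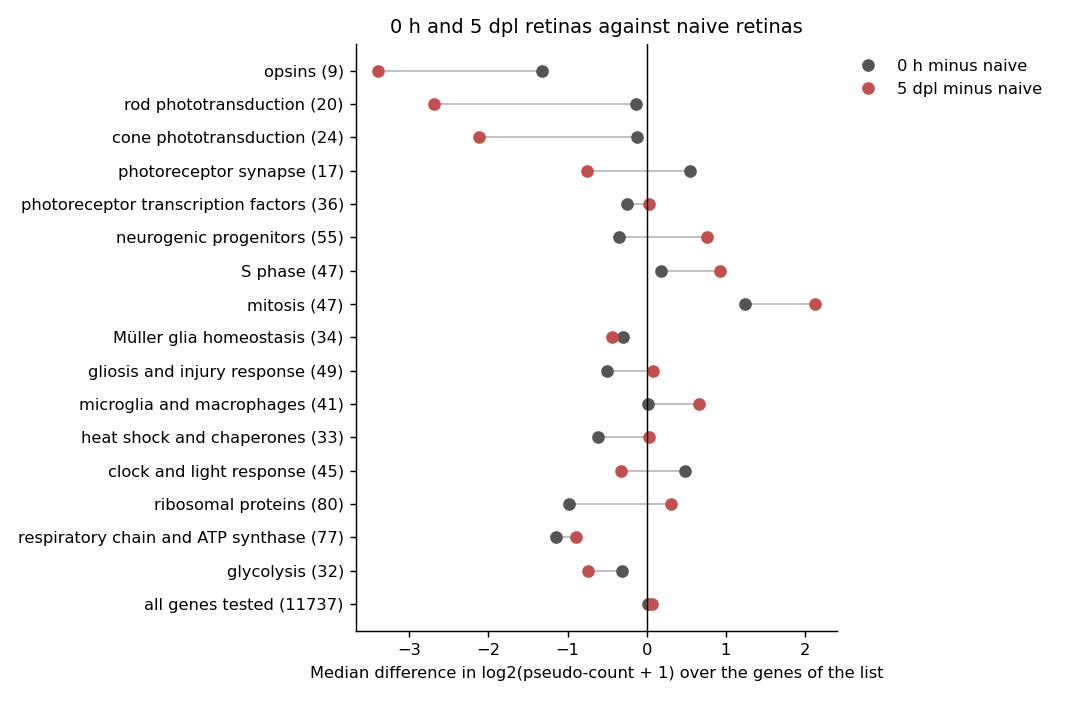
Median log2 difference of each gene list from naïve retinas at 0 h and at 5 dpl, in log2 units of pseudo-count + 1. Rods and cones are near 0 at 0 h (-0.14 and -0.12) and at -2.69 and -2.12 at 5 dpl, whereas ribosomal proteins are at -0.98 at 0 h and at 0.31 at 5 dpl.

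The change from 0 h to 5 dpl was compared between the 2 experiments. With edgeR, 4 of 13075 genes (0.0306%) had a change that differed between them at an adjusted p below 0.05, 2 (0.0153%) with a higher value in experiment 2 and 2 (0.0153%) with a lower one (1166 genes at an unadjusted p below 0.05). Without the shallow library 10 did (0.0765%), 7 higher (0.0535%) and 3 lower (0.0229%). The level itself, apart from the change, differed between the experiments in 798 genes (6.1%). The 4 were cry1bb, a cryptochrome of the clock, nme2a, a nucleoside diphosphate kinase, ntf3, a neurotrophin, and the retinoid-related orphan receptor rorcb. Gene cry1bb was at 16.4 to 29.6 CPM in the 0 h retinas of experiment 1 and at 84.6 to 200 CPM in those of experiment 2, with 156 to 280 CPM and 130 to 151 CPM at 5 dpl, so it rose by 2.90 on the log2 scale in the first and by 0.10, which did not pass, in the second. Gene ntf3 fell in experiment 1 (-1.87) and rose in experiment 2 (2.46). The sign of the list medians was shared by both experiments for cone, neurogenic and mitosis genes, with medians of -2.35 and -2.17 for cone genes, 0.61 and 0.83 for neurogenic genes and 0.96 and 1.37 for mitosis genes.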

How the data were processed

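The measurements are 3′ mRNA sequencing (QuantSeq) of single retinas. The authors aligned reads to the zebrafish build dR10 named in the paper and counted them per gene. The submitters' processing notes name STAR, HTSeq and edgeR, without versions. They deposited raw counts for 15245 genes in the 48 time-course libraries, and 36 repeated columns of the 0 h libraries were not used. They also deposited edgeR pseudo-counts, a signal adjusted to 1 common depth, for the 54 libraries, and 12 of its entries that carry dates where gene names belong were left out. The log2 fold changes, likelihood-ratio scores and p-values in the deposited tables are the authors' own comparisons and were not used.

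The fit to the counts used the quasi-likelihood F test of edgeR 4.0.16 in R 4.3.3, with TMM, terms for group and experiment, and all 48 libraries. It took the 13075 genes that reached 5 reads in 6 or more libraries, and genes were called at a Benjamini-Hochberg adjusted p below 0.05. Levels are CPM on TMM-scaled sizes of the kept genes. A fold change is given as log2 ± SE. Pseudo-counts were tested with limma 3.58.1 on log2(value + 1) in 18 libraries, without an experiment term. The experiment of a retina was taken from the naming of the raw read files. Opsin shares were compared with exact permutation tests in Python 3.11.15. The counting interval of grn2 was an exact binomial interval from SciPy 1.17.1. The edgeR script was tested on simulated data. DESeq2 1.42.0 was an alternative.

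The comparison, the 32 gene lists and the genes named were chosen with earlier results of these data known. Named were genes with large changes and no overlap between retinas, genes in the paper's text, and list members. The list members had the smallest adjusted p or the highest level among those not called. For genes named by size of change, the lack of overlap was a condition and is not a separate result. The digestive genes and single exceptions to a count were named after their values were seen. QuantSeq reads come from transcript ends, so levels of single genes were in general not compared between genes. The exceptions are the opsin shares, the summed list levels and the part of camk1gb in its sum.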

Additional observations from a re-analysis of the deposited data

Results flagged for a closer look

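Single retinas that stood apart from the other 5 of their group were looked for in 139 named genes and in the 5 opsin shares, 288 groups in all. A retina was marked where its gap to the nearest other retina was a larger part of the range than Dixon's 95% value allows for 6, which chance alone gives in about 1 of 20 groups, and 31 were found.

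Of these, 12 were in the shallow 5 dpl replicate 2. It was highest in slc1a2b (4675 CPM), stmn2a (1628 CPM), crb2b (331 CPM), hsp90ab1 (15385 CPM), neurod1 (2819 CPM), hmga1a (1744 CPM), mki67 (312 CPM) and grk1b (127 CPM). It was lowest in rlbp1a (153 CPM), vim (163 CPM), gnao1a (363 CPM) and tyms (10.9 CPM).

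At 0 h, replicate 5 was the highest retina in 14 cases. Photoreceptor genes made up most of them: opn1lw1 (3522 CPM), opn1lw2 (375 CPM), opn1mw2 (3283 CPM), opn1sw1 (9174 CPM), pdcb (5179 CPM), sagb (1001 CPM), gngt2b (6826 CPM), arr3a (5009 CPM) and crx (1386 CPM). The others were mdkb (421 CPM), ctsc (22.4 CPM), ndrg1b (521 CPM), nfil3 (23.0 CPM) and kera (569 CPM). The remaining 0 h case was nusap1 in replicate 3 (19.4 CPM). Among the other 5 dpl retinas, replicate 4 was highest in opn1mw2 (449 CPM, and 24.0% of green opsin reads) and insm1a (99.0 CPM), and replicate 3 in slc2a1a (57.8 CPM).

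The change of 4 genes differed between the experiments by the edgeR interaction test, each at an adjusted p of 0.0462. The log2 change of experiment 2 minus that of experiment 1 was -2.84 for cry1bb, 3.93 for nme2a, 4.32 for ntf3 and -4.95 for rorcb.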

How the results depend on the processing

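Against 0 h, none of 139 named genes checked reversed its direction past the threshold under an alternative. Genes ntf3 and nme2a passed in opposite directions in experiments 1 and 2 (-1.87 and 2.46 for ntf3, -1.61 and 2.27 for nme2a). List counts were compared by size only, with higher and lower members apart, so a reversal of a list was not tested. With dispersion estimated from only the 12 libraries compared, calls fell to 1363 higher and 1043 lower against 0 h, to 536 higher against 72 hpl, and to 352 higher and 387 lower against 10 dpl. Experiment 1 alone gave 1174 higher and 864 lower, and without its shallow library, an alternative added after seeing the data, 1603 and 992. Experiment 2 alone gave 1799 and 1513. Leaving out each retina in turn gave 2012 to 2497 higher and 1507 to 2004 lower against 0 h, 721 to 939 and 777 to 900 against 72 hpl, and 731 to 1046 and 612 to 826 against 10 dpl. Without 5 dpl replicate 2 the interaction gave 7 higher and 3 lower genes. The replicate block gave 2217 and 1791 calls against 0 h and changed the call of none of the 139 named genes that were checked. Same-numbered retinas correlated by 0.054 to 0.29 and, within an experiment, by -0.0655 to 0.00849, so the numbers do not pair retinas. DESeq2, RLE size factors, other filters, voom weights, pseudo-counts and no experiment term gave counts within 1.5 times. Leaving out a retina moved the differences in opsin share within 22.0 to 26.7 points for opn1lw2, -43.7 to -35.2 for opn1mw2, up to 34.5 for opn1mw4, 4.56 to 11 for opn1mw3 and 0.132 to 1.19 for opn1mw1. Of the counts of list members higher or lower than at 0 h, 22 shrank by over 1.5 times with only the 12 libraries compared and 34 with experiment 1 alone. List counts of 5 or fewer moved by at most 2 genes when a retina was left out. The depth of 5 dpl replicate 2 limits genes below about 20 CPM, where it holds few reads. This library also stood apart from the other 5 dpl retinas in abundant genes, in both directions. It was at 153 CPM in rlbp1a, against 925 CPM in the nearest, and at 4675 CPM in slc1a2b, against 1170 CPM. Its summed ribosomal protein level was 32980 CPM, against at least 81540 CPM. The source of these differences was not tested.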
